A study of Mus musculus with 6 samples.

Results

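The mammalian circadian clock is a feedback loop of transcription factors, and the genes measured here are its core: the activators *Arntl* (also called *Bmal1*), *Npas2* and *Clock*, the PER and CRY repressors *Per1*, *Per2*, *Per3*, *Cry1* and *Cry2*, and the REV-ERB repressors *Nr1d1* and *Nr1d2*. They were taken from the table of read counts by gene symbol, and all 10 were found once among its 54532 genes and were among the 18689 genes tested. RNA came from the whole lung after perfusion, and the groups were 3 WT and 3 *ISM1-/-* mice, with 1 library sequenced for each. All mice were 2 months old, of the C57BL/6J background and untreated. The WT mice were bought and the *ISM1-/-* mice were bred by the laboratory, and these origins cannot be told apart from genotype. The hour of day at which the lungs were taken is not given in the sources used here. Each genotype was sampled at 1 age and with no series of hours, so a change in the level of a rhythmic gene and a change in its timing cannot be told apart in these data.

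The targeted gene *Ism1*, which encodes a secreted protein, was counted 3098, 3215 and 2975 times in WT and 2784, 2508 and 2953 times in the libraries labelled *ISM1-/-*. Its mean in CPM (the count relative to the library total, scaled by TMM, edgeR's normalisation for library composition) was 87.6% of WT, with an adjusted p of 0.217 (quasi-likelihood test of edgeR, Benjamini-Hochberg adjustment). The transcript was therefore still counted, and the genotype of every library rests on its label. In CPM, each library labelled *ISM1-/-* was below each WT library, and 21.6% of all genes tested had no such overlap in either direction. The log2 fold change of *Ism1* was -0.19 (95% interval -0.35 to -0.03). With each library left out, it passed the edgeR test only without *ISM1-/-* replicate 3 (adjusted p = 0.0356). Total counts ranged from 37606133 to 42345042 per library. The defining lung markers were present in every library, with a sum over 10 markers of 40274 to 42654 CPM in WT and 33564 to 35749 CPM in *ISM1-/-*. Of these 10, 3 passed the edgeR test as lower in the libraries labelled *ISM1-/-* (adjusted p under 0.1), against 3.34% of all genes tested. They were *Scgb1a1* of club cells, *Foxj1* of ciliated cells and *Col1a1* of fibroblasts. *Scgb1a1* alone, with a mean of 20919 CPM in WT and 14669 CPM in *ISM1-/-*, made up most of the drop in the sum. Of the 10 log2 fold changes, 4 were above 0 and 6 below. Because whole lung is a mixture, fewer cells of a type and less RNA per cell cannot be told apart in any value given here.

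In the loop, BMAL1 pairs with CLOCK, or with its relative NPAS2, and the pair binds E-boxes in the promoters of the *Per*, *Cry* and *Nr1d* genes. PER and CRY proteins return to the nucleus and block the pair, so activators and repressors peak at different hours. A further arm runs through REV-ERB proteins, which repress genes that carry a RORE (here RRE), *Arntl* and *Npas2* among them, while ROR proteins activate the same sites. DBP, TEF and HLF activate genes through D-boxes, and NFIL3 represses them. In the lung the clock is known from airway epithelial cells, where it gates responses to inflammation, and it runs in most other cell types as well.

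All of these kinds of site appear in promoters of the members, and 1 example of each is shown so that the values can be read beside the sites through which the loop is known to run. RefSeq promoter windows on GRCm38.p6, of 250 bases before and 50 after a start site, were at hand for 9 of the 10 members (13 windows), with *Per2* missing. They were searched on both strands for the E-box CACGTG, the E-box variant CACGTT, the RRE core TAGGTCA and the D-box TTATGTAA, none of which overlapped another. Matches lay in windows of 6 members. The first stretch is 30 bases of *Arntl* just downstream of a start site (chr7:113207529-113207558, forward strand), with its RRE in capitals. The next is the 250 bases upstream of *Per3* (chr4:151044666-151044915, reverse strand), with D-boxes in capitals that begin at -205 and -158 from the start. The last is the 250 bases upstream of *Cry1* (chr10:85185055-85185304, reverse strand), with the E-box at -60 and the reverse complement of the variant at -79 in capitals. All are written 5′ to 3′ on the strand of the gene.
Arntl: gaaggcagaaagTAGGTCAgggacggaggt
Per3: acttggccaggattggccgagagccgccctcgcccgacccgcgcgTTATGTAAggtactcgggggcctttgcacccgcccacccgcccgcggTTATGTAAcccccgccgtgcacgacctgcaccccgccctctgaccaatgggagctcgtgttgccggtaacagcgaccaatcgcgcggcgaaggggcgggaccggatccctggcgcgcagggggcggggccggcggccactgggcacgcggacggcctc
Cry1: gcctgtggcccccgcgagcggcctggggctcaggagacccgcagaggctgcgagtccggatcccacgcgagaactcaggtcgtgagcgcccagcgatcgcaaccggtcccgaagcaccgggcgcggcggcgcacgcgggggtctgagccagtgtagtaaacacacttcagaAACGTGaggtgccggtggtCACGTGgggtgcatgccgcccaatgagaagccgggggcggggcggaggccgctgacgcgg

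The other matches were an E-box at -166 from a start of *Per1*, and the E-box variant at -166 in *Cry2* and at -28 in *Nr1d1*. Among all 32851 RefSeq windows of the same length, 7.15% held the E-box, 4.68% its variant, 2.61% the RRE core and 0.938% the D-box. A match describes the letters of the window only, and no binding was measured here.

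The activators *Arntl* and *Npas2* were lower in the libraries labelled *ISM1-/-*, the repressors *Per2*, *Per3* and *Nr1d2* were higher, and the other 5 members did not pass the test. A gene was called at an adjusted p under 0.1 over all genes tested, by the quasi-likelihood test of edgeR, adjusted after Benjamini and Hochberg, with no minimum fold. That is 5 of 10 members called, against 4.72% of all genes tested. It is 3 of 10 called higher, against 1.38% of all genes, and 2 of 10 called lower, against 3.34%. With a minimum of 2-fold added, only *Npas2* was called among the members, against 0.567% of all genes. In 5 of 10 members, the same 5, no library of one genotype reached the range of the other, against 21.6% of all genes tested. The median size of the log2 fold change, without its sign, was 0.44 over the members and 0.11 over all genes tested. The members were chosen with earlier results of these data known, so these shares describe the set and do not test it. The members together took 863 to 923 CPM before TMM scaling in the WT libraries and 980 to 1013 CPM in the libraries labelled *ISM1-/-*.

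**Figure D1:**
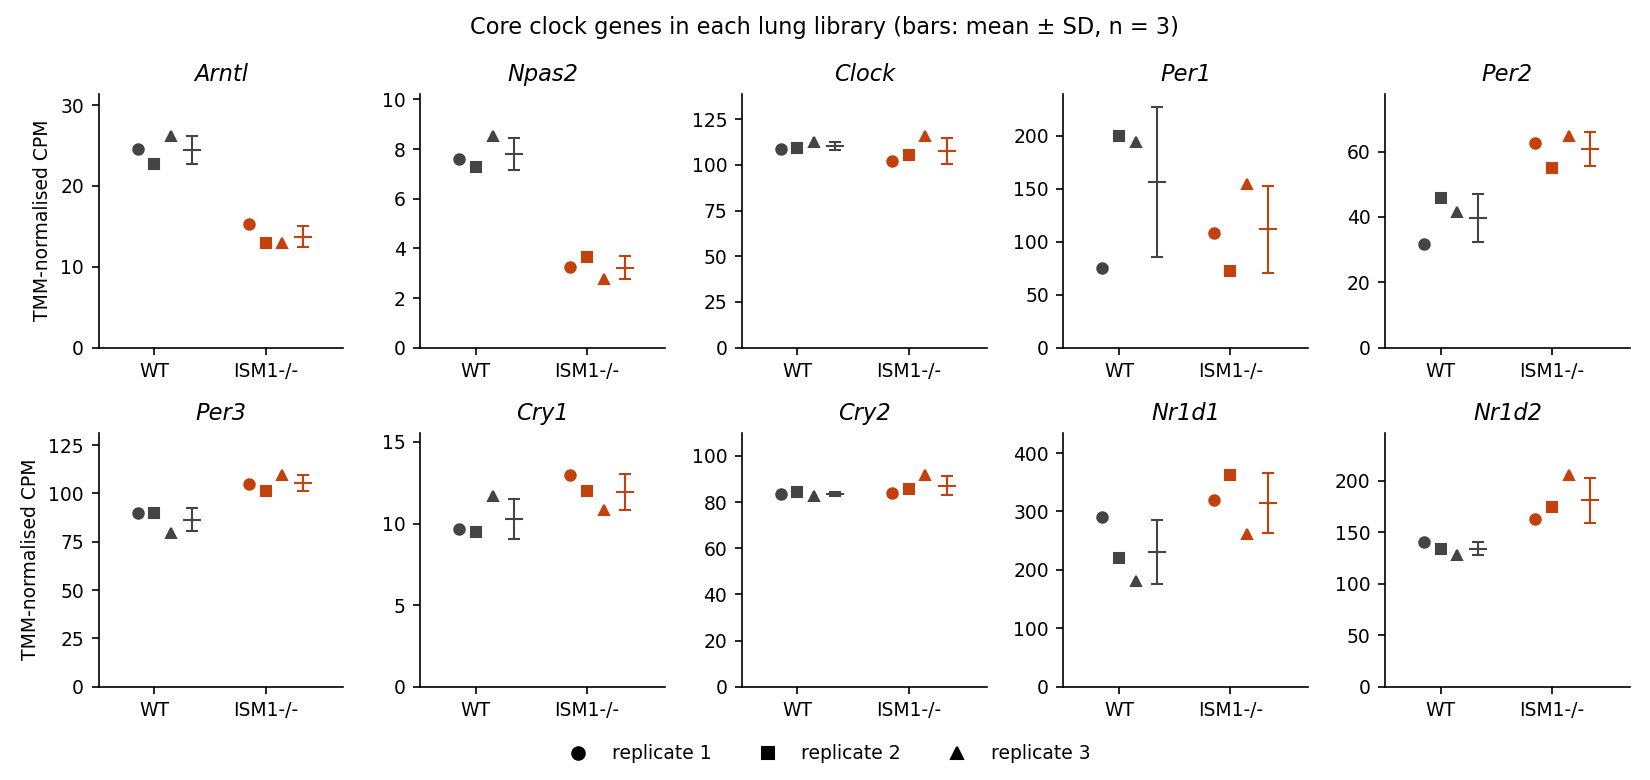
TMM-normalised CPM (vertical axes, each starting at 0) of the 10 core clock genes in the 3 WT and 3 *ISM1-/-* libraries, with symbols for the replicates and bars for mean ± SD. *Arntl* and *Npas2* sit lower in every library labelled *ISM1-/-*, *Per2*, *Per3* and *Nr1d2* sit higher, and the points of *Clock*, *Cry1*, *Cry2*, *Per1* and *Nr1d1* overlap between genotypes.

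*Arntl* (ENSMUSG00000055116, chr7:113207465-113314126, forward strand) encodes BMAL1, the partner that the loop cannot do without. It had 24.6, 22.7 and 26.2 CPM in the WT libraries and 15.3, 13.0 and 12.9 CPM in those labelled *ISM1-/-*. Each of the latter was below each WT library, and the mean fell from 24.5 ± 1.74 CPM to 13.7 ± 1.34 CPM (SD, n = 3 each), or to 56.1% of WT. The log2 fold change was -0.83 (SE 0.0919, 95% interval -1.04 to -0.63), with an adjusted p of 0.00739 in edgeR. The call held whichever library was left out, with log2 fold changes from -0.92 to -0.78.

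*Npas2* (ENSMUSG00000026077, chr1:39193731-39363236, forward strand) encodes the relative of CLOCK that can take its place beside BMAL1. It was counted 287, 302 and 330 times in the WT libraries and 138, 139 and 108 times in those labelled *ISM1-/-*, which is 7.61, 7.28 and 8.53 CPM against 3.25, 3.66 and 2.77 CPM. The genotypes were well apart, and the mean fell from 7.81 ± 0.651 to 3.23 ± 0.448 CPM (SD, n = 3 each), to 41.3% of WT. Its log2 fold change of -1.27 (SE 0.140, 95% interval -1.59 to -0.96; edgeR's adjusted p = 0.00739) was the largest in size of the 10 members. It stayed between -1.37 and -1.18 and was called with each library left out.

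*Clock* (ENSMUSG00000029238, chr5:76209868-76304792, reverse strand), the activator whose transcript is known to cycle little in most tissues, had 109, 109 and 113 CPM in WT and 102, 105 and 116 CPM in the libraries labelled *ISM1-/-*. The 2 ranges overlapped. The log2 fold change was -0.03 (SE 0.0627, edgeR's adjusted p = 0.853), and its 95% interval of -0.17 to 0.10 holds no change as large as that of *Arntl* or *Npas2*.

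*Per2* (ENSMUSG00000055866, chr1:91415982-91459324, reverse strand) encodes a repressor that carries CRY proteins to the BMAL1 pair. It had 31.7, 45.9 and 41.4 CPM in WT and 62.6, 55.1 and 64.8 CPM in the libraries labelled *ISM1-/-*. All of the latter were above all WT libraries, and WT replicate 1 was the lowest of the 6. The mean rose 1.53-fold, from 39.7 ± 7.27 to 60.8 ± 5.10 CPM (SD, n = 3 each), with a log2 fold change of 0.62 (SE 0.123, edgeR's adjusted p = 0.0363). It passed in 5 of the 6 fits with a library left out, and without *ISM1-/-* replicate 1 the adjusted p was 0.124.

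*Per3* (ENSMUSG00000028957, chr4:151003652-151044665, reverse strand) encodes the PER protein that is least needed for the rhythm itself, and its promoter with the D-boxes is printed above. It had 90.0, 89.8 and 79.7 CPM in WT and 104.8, 101.5 and 109.6 CPM in the libraries labelled *ISM1-/-*. The genotypes did not overlap, although the rise was small, from 86.5 ± 5.91 to 105 ± 4.11 CPM (SD, n = 3 each), or 1.22-fold. The log2 fold change was 0.28 (SE 0.0663, edgeR's adjusted p = 0.0577). The call held in 2 of the 6 fits with a library left out and was lost without WT replicate 2 or 3 or *ISM1-/-* replicate 1 or 2, with an adjusted p of up to 0.193. *Camta1*, which spans *Per3* on the same strand, had 21.4% as many counts on average and a log2 fold change of -0.01 (edgeR's adjusted p = 0.967).

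*Per1* (ENSMUSG00000020893, chr11:69095217-69109960, forward strand), the PER gene that also answers quickly to glucocorticoids and to cAMP signals, varied widely within each genotype. Its mean was 156 ± 70.5 CPM in WT and 112 ± 40.9 CPM in the libraries labelled *ISM1-/-* (SD, n = 3 each). It had 74.8, 199.7 and 194 CPM in WT and 108, 72.7 and 154 CPM in the libraries labelled *ISM1-/-*. The lowest WT library lay beside the lowest of the other genotype, and the highest 2 libraries were both WT. The log2 fold change was -0.48 (SE 0.345, 95% interval -1.25 to 0.29; edgeR's adjusted p = 0.557) and lay between -0.81 and -0.25 with each library left out, so the direction opposite to that of *Per2* was not resolved. Its coefficient of variation was 45.2% in WT and 36.6% in *ISM1-/-*, where the median over the 10833 genes that averaged 10 CPM or more was 4.69% and 6.40%. These values were at percentile 99.6 and 99.7 of those genes.

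The libraries with the lowest *Per1* were WT replicate 1 and *ISM1-/-* replicate 2. In 6 of 8 immediate early genes, which cells switch on within minutes of a stimulus, these were the libraries with the highest value of their genotype. How many of all genes shared that order was not counted. *Egr1* had 112.6, 27.0 and 22.3 CPM in WT and 23.1, 76.0 and 22.1 CPM in *ISM1-/-*, and *Fos* had 41.5, 16.4 and 14.8 CPM and 12.7, 33.5 and 14.9 CPM. None of the 8 was called between genotypes. Of 10 genes known to answer to glucocorticoids, 2 (*Mt2* and *Dusp1*) were highest in these libraries, 1 (*Tsc22d3*) was lowest there like *Per1*, and the other 7 followed neither order in full. Among those 7, *Fkbp5*, *Sgk1*, *Klf9*, *Ddit4* and *Errfi1* matched *Per1* in part. Within their genotype they were lowest in WT replicate 1 and highest in *ISM1-/-* replicate 3, as *Per1* was, but lowest in *ISM1-/-* replicate 1. *Zbtb16* and *Mt1* were not lowest in WT replicate 1. *Tsc22d3* had 100.6, 164.8 and 202.7 CPM in WT and 115.9, 110.8 and 242.0 CPM in *ISM1-/-*. The immediate early and glucocorticoid-responsive genes named here were picked from their lists after their values were seen. Their part in the spread of *Per1* was not tested.

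**Figure D2:**
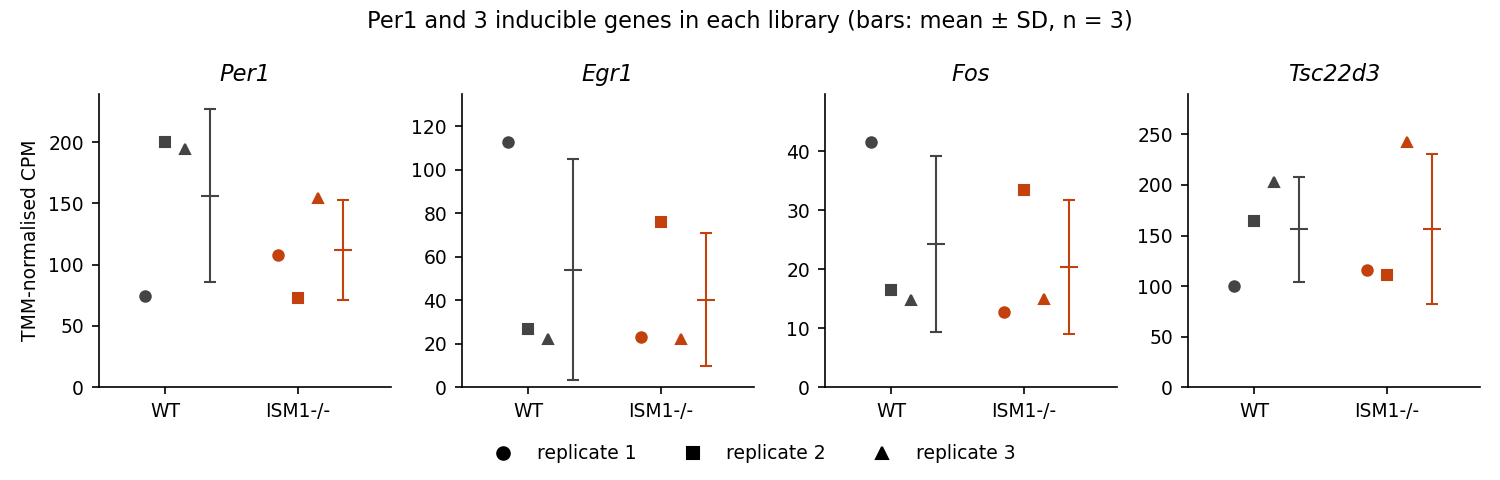
TMM-normalised CPM (vertical axes from 0) of *Per1* and of *Egr1*, *Fos* and *Tsc22d3* in each library, with symbols for replicates and bars for mean ± SD (n = 3). In WT replicate 1 and *ISM1-/-* replicate 2, *Per1* is at 74.8 and 72.7 CPM, the lowest of its genotype, while *Egr1* is at 112.6 and 76.0 CPM, the highest. *Tsc22d3* is the only 1 of 10 glucocorticoid-responsive genes that is lowest in both. *Fkbp5*, *Sgk1*, *Klf9*, *Ddit4* and *Errfi1*, not drawn, are lowest in WT replicate 1 but not in *ISM1-/-* replicate 2.

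The cryptochromes, the repressors that block the BMAL1 pair directly, did not pass the test. *Cry1* (ENSMUSG00000020038, chr10:85131700-85185064, reverse strand) had 9.65, 9.47 and 11.7 CPM in WT and 13.0, 11.97 and 10.8 CPM in the libraries labelled *ISM1-/-*, with overlap between the genotypes. Its log2 fold change was 0.21 (SE 0.114, 95% interval -0.04 to 0.47; edgeR's adjusted p = 0.410). *Cry2* (ENSMUSG00000068742, chr2:92403646-92434043, reverse strand) had 83.6, 84.3 and 82.6 CPM in WT and 83.9, 85.6 and 91.8 CPM in *ISM1-/-*. The log2 fold change of *Cry2* was 0.06 (SE 0.0577, 95% interval -0.07 to 0.19; edgeR's adjusted p = 0.681).

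*Nr1d2* (ENSMUSG00000021775, chr14:18204054-18239127, reverse strand) encodes REV-ERB beta. It had 140, 134 and 128 CPM in WT and 163, 174 and 206 CPM in the libraries labelled *ISM1-/-*, without overlap. The mean rose 1.35-fold, from 134 ± 6.19 to 181 ± 22.2 CPM (SD, n = 3 each), with a log2 fold change of 0.43 (SE 0.0855, edgeR's adjusted p = 0.0345). The call was lost without WT replicate 2 (adjusted p = 0.129 from edgeR) or WT replicate 3 (0.119) and held in the other 4 fits.

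*Nr1d1* (ENSMUSG00000020889, chr11:98767932-98775333, reverse strand) encodes REV-ERB alpha, the main repressor of *Arntl*. It had 290, 220 and 181 CPM in WT and 320, 363 and 261 CPM in the libraries labelled *ISM1-/-*. WT replicate 1 was above *ISM1-/-* replicate 3, so the genotypes overlapped. The log2 fold change of 0.45 (SE 0.162, edgeR's adjusted p = 0.204) was about as large as that of *Nr1d2*, with a wider 95% interval of 0.09 to 0.81. It lay between 0.30 and 0.65 with each library left out and passed only without WT replicate 1 (adjusted p = 0.0519 from edgeR). *Thra*, the gene of thyroid hormone receptor alpha, overlaps the end of *Nr1d1* by 1075 bases on the opposite strand and had 60.9% as many counts on average. Whether the counting used the strand is not given in the sources used here, so some reads of either gene could have been given to the other. *Thra* itself had a log2 fold change of -0.18 (SE 0.0706, edgeR's adjusted p = 0.233).

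**Figure D3:**
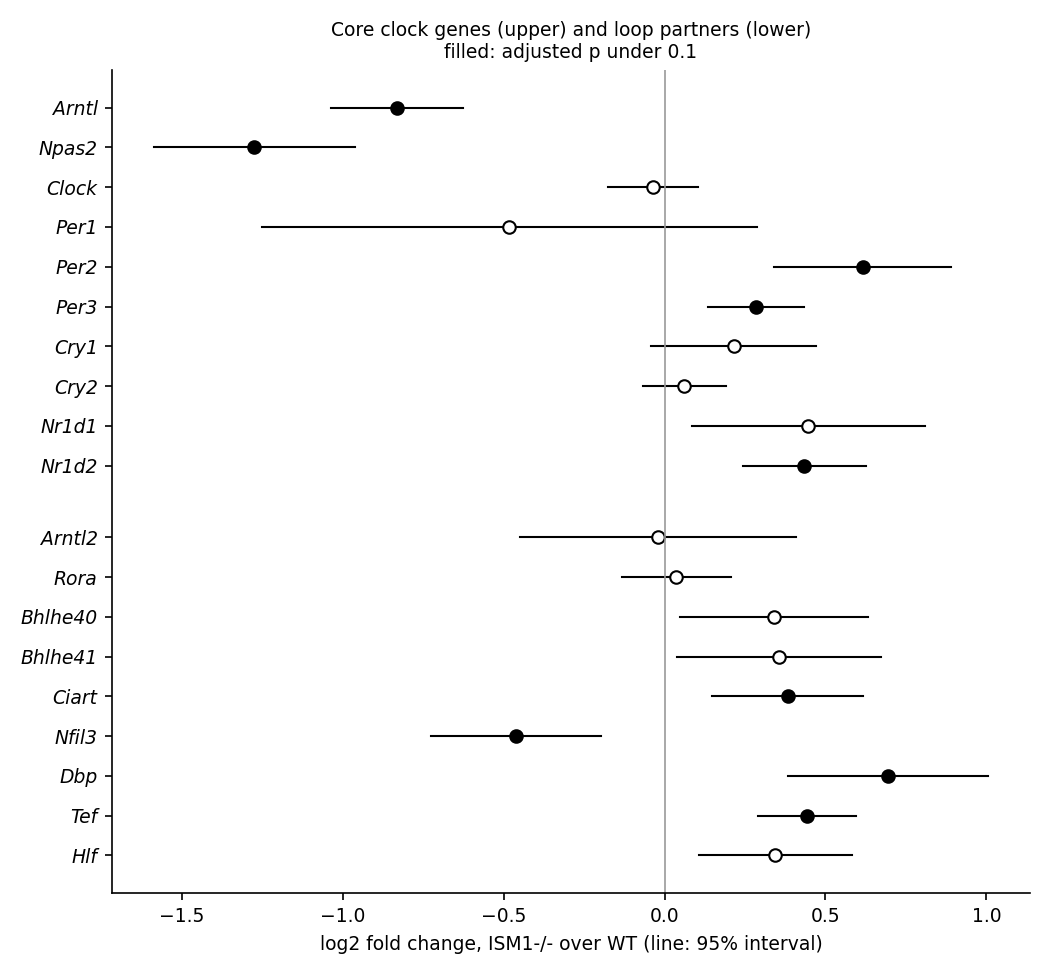
Log2 fold change of *ISM1-/-* over WT (horizontal axis) with its 95% interval for the 10 core clock genes and 9 loop partners, filled where edgeR's adjusted p was under 0.1. *Npas2* and *Arntl* lie farthest to the left at -1.27 and -0.83, and *Dbp* and *Per2* farthest to the right at 0.69 and 0.62.

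Levels of different genes were compared in FPKM, the deposited values scaled by library total and gene length. In WT the order was *Nr1d1* (132 ± 31.7 FPKM), *Nr1d2* (69.0 ± 3.19), *Per1* (45.1 ± 20.3), *Cry2* (39.1 ± 0.366), *Clock* (22.6 ± 0.460), *Per3* (20.7 ± 1.40), *Per2* (13.1 ± 2.39), *Cry1* (10.02 ± 1.22), *Arntl* (9.36 ± 0.676) and *Npas2* (4.52 ± 0.382), all as mean and SD with n = 3. In the libraries labelled *ISM1-/-* the order was *Nr1d1* (179 ± 30.6 FPKM), *Nr1d2* (92.7 ± 10.4), *Cry2* (40.6 ± 1.48), *Per1* (32.0 ± 11.4), *Per3* (25.0 ± 0.764), *Clock* (21.9 ± 1.25), *Per2* (19.97 ± 1.57), *Cry1* (11.6 ± 1.16), *Arntl* (5.22 ± 0.548) and *Npas2* (1.86 ± 0.273). Both REV-ERB genes stood above the other members and *Npas2* stood lowest in both genotypes. Neighbours whose libraries overlapped were *Per1* and *Cry2* in both genotypes, *Per2* and *Cry1* and also *Cry1* and *Arntl* in WT, and, in *ISM1-/-*, *Per1* and *Per3* and also *Clock* and *Per2*. Among the genes tested, the mean FPKM over the 6 libraries of *Nr1d1* was at percentile 97.0, that of *Arntl* at 45.8 and that of *Npas2* at 33.3.

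Ratios of counts within a library do not depend on how libraries are scaled, and 5 were compared by a two-sided exact permutation test over the 6 libraries, whose smallest possible p is 0.1. *Npas2* over *Clock*, the partners that compete for BMAL1, was -3.83, -3.91 and -3.72 on the log2 scale in WT and -4.97, -4.84 and -5.39 in the libraries labelled *ISM1-/-*. The means differed by -1.24 on the log2 scale, or 2.37-fold, and each library of that genotype was below each WT library (exact permutation p = 0.1, 0.25 after adjustment over the 5 ratios). *Arntl* over *Nr1d1*, an activator and its repressor, was -3.56, -3.28 and -2.79 in WT and -4.39, -4.80 and -4.33 in *ISM1-/-*, a shift of -1.30 or 2.46-fold without overlap (exact permutation p = 0.1, adjusted 0.25). The other ratios overlapped between genotypes. *Cry1* over *Cry2* differed by 0.16 (exact permutation p = 0.3, adjusted 0.375), *Per1* over *Per3* by -0.70 (exact permutation p = 0.3, adjusted 0.375), and *Nr1d1* over *Nr1d2* by 0.03 (exact permutation p = 0.9, adjusted 0.9). With 3 libraries a genotype, no ratio could have passed an adjusted threshold of 0.05.

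**Figure D4:**
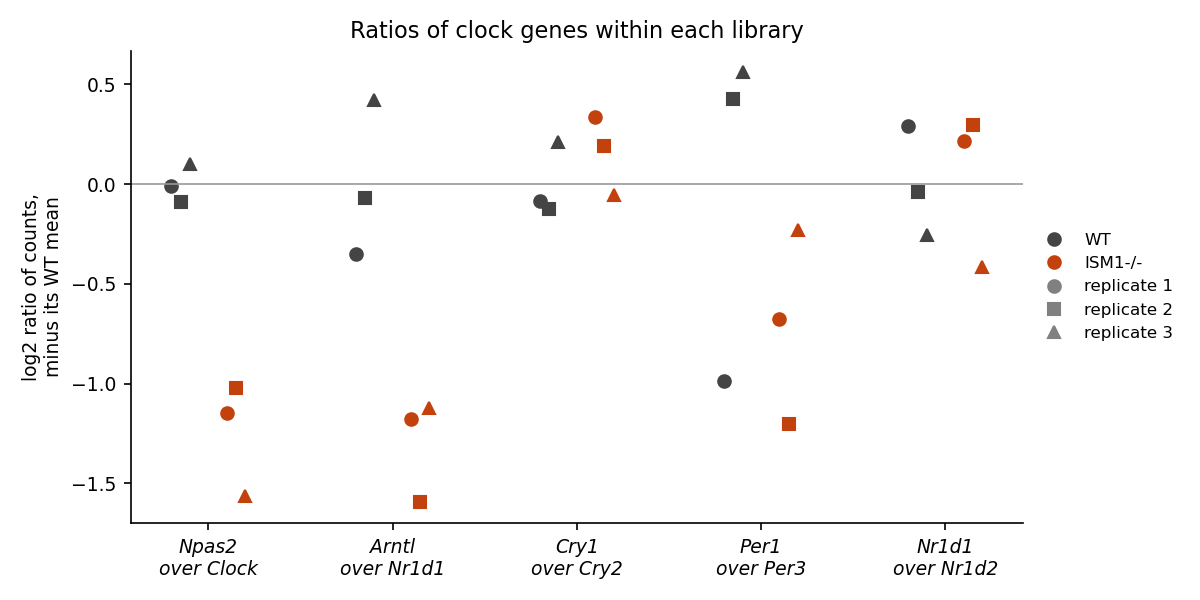
Log2 ratio of counts within each library for 5 pairs of clock genes (vertical axis), with the WT mean of each pair set to 0, colours for genotype and symbols for replicate. The points of *Npas2* over *Clock* and of *Arntl* over *Nr1d1* lie below all WT points in the 3 libraries labelled *ISM1-/-*, and those of the other 3 pairs overlap.

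Within a genotype the members did not follow a single order of libraries. *Per1* and *Per2* shared 1 order, from WT replicate 2 over 3 to 1 and from *ISM1-/-* replicate 3 over 1 to 2, although only *Per2* was called. *Arntl* and *Cry1* also had an order in common, with WT replicate 3 and *ISM1-/-* replicate 1 at the top. *Nr1d1* had that of the loop partner *Dbp*, falling from WT replicate 1 to 3 and highest in *ISM1-/-* replicate 2. With 3 libraries a genotype these orders are a description only.

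Loop partners, the other transcription factors that feed into the core, moved in part. Of 11 listed, 10 were tested (*Rorb* did not reach the count filter), and 3 were called higher and 1 lower. Over all genes tested, 1.38% were called higher and 3.34% lower. In 5 of the 10 the genotypes did not overlap, against 21.6% of all genes tested. Their median size of change was 0.35 on the log2 scale, beside 0.11 over all genes tested. *Dbp*, a D-box activator and a classic target of the BMAL1 pair, had 99.3, 89.4 and 69.0 CPM in WT and 135, 163 and 119 CPM in the libraries labelled *ISM1-/-*. All of the latter were higher, with a log2 fold change of 0.69 (SE 0.139, edgeR's adjusted p = 0.0366), but the call held in only 3 of the 6 fits with a library left out. *Sphk2* overlaps the end of *Dbp* by 737 bases on the opposite strand, with 41.6% as many counts and a log2 fold change of -0.13 (edgeR's adjusted p = 0.446).

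*Tef*, of the same family as *Dbp*, rose by 0.44 on the log2 scale (SE 0.0684, edgeR's adjusted p = 0.0163) and was called with each library left out. *Ciart*, which encodes a repressor of the BMAL1 pair, rose by 0.38 (SE 0.105, edgeR's adjusted p = 0.0992), a call that was lost in all 6 fits with a library left out. An antisense gene across *Ciart*, *C920021L13Rik*, had 30.5% as many counts and a log2 fold change of 0.40 (edgeR's adjusted p = 0.154), and without the strand setting the reads of the pair cannot be told apart. *Nfil3*, the D-box repressor, fell by 0.46 on the log2 scale (SE 0.118, edgeR's adjusted p = 0.0792) and kept its call in 1 of 6 such fits.

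The third D-box activator, *Hlf*, had a log2 fold change of 0.34 without overlap (SE 0.107, edgeR's adjusted p = 0.140). *Bhlhe40* and *Bhlhe41*, which encode E-box repressors, had log2 fold changes of 0.34 and 0.36 (edgeR's adjusted p = 0.231 and 0.250). *Rora*, whose product opposes REV-ERB, was at 0.04 (edgeR's adjusted p = 0.877), and *Arntl2*, a relative of *Arntl*, was at -0.02 (edgeR's adjusted p = 0.979). None of these 5 genes passed the test.

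Enzymes that modify or degrade clock proteins, such as casein kinases and ubiquitin ligases, formed a further list. Of 19 tested, 1 was called (5.26%, against 4.72% of all genes tested). It was *Usp2*, a deubiquitinase that is itself rhythmic in many tissues, which fell from 13.4, 13.8 and 14.7 CPM in WT to 9.3, 9.3 and 11.8 CPM (log2 fold change -0.46, SE 0.110, edgeR's adjusted p = 0.0631). The call of *Usp2* was lost in 4 of the 6 fits with a library left out, those without WT replicate 2 or 3 or *ISM1-/-* replicate 1 or 2. The median size of change over the 19 genes was 0.05, beside 0.11 over all genes tested. Of 9 output genes listed, 8 were in the table under the name used, *Ccrn4l* being an older name of *Noct*, which was listed too. Of these 8, 2 were called (25%, against 4.72% of all genes tested) and 4 did not overlap between genotypes (against 21.6% of all genes tested). *Tspan4* rose by 0.38 on the log2 scale (SE 0.0948, edgeR's adjusted p = 0.0715) and *Por*, the reductase that serves cytochrome P450 enzymes, fell by 0.26 (SE 0.0603, edgeR's adjusted p = 0.0578). Each was called in at most 2 of the 6 fits with a library left out. *Chid1* overlaps *Tspan4* on the opposite strand, with 61.0% as many counts and a log2 fold change of -0.09 (edgeR's adjusted p = 0.625).

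Markers of other cells moved with genotype as well. Over all genes tested, 3.34% were called lower and 1.38% higher. All 8 adipocyte markers were called lower, with a summed level of 179 to 228 CPM in WT and 38.6 to 101 CPM in the libraries labelled *ISM1-/-*. Of 9 cardiomyocyte markers 1 was called lower, with sums of 539 to 1612 CPM in WT, the highest in replicate 1, and 307 to 573 CPM in *ISM1-/-*. Of 5 neutrophil markers 4 were called higher (42.1 to 55.7 CPM against 71.1 to 126 CPM), and of 4 plasma cell markers 2 (193 to 201 CPM against 253 to 295 CPM). Most of the plasma cell sum was *Xbp1*, with a mean of 176 CPM in WT and 187 CPM in *ISM1-/-*, which was not called. The 2 called were *Jchain*, with means of 4.18 and 18.2 CPM, and *Igha*, with 14.2 and 64.5 CPM. The 2 brown fat markers had sums of 1.28 to 12.3 CPM in WT and 0.641 to 0.941 CPM in *ISM1-/-*, with none called. No marker of these lists was at 0 in every library. Their part in the changes of the clock genes was not tested.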

How the data were processed

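RNA was measured in whole lungs of 3 WT and 3 *ISM1-/-* mice, grouped by the labels, with 1 library per mouse. The authors made strand-specific poly-A libraries, sequenced them in read pairs, removed adaptors and low-quality reads, mapped the rest to GRCm38 (mm10) with STAR, and deposited for each gene its raw count of reads. The submitters' processing notes also name CASAVA. The counting program, annotation release and strand setting are not given in the sources used here. The authors also deposited FPKM, which they scaled by library total and gene length, and these values served only to compare levels between genes.

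The analysis ran in edgeR 4.0.16 under R 4.3.3. A gene was kept if any 1 library reached 0.5 CPM (18689 of 54532 genes). Counts were scaled by TMM and tested with the quasi-likelihood test (estimateDisp, glmQLFit, glmQLFTest) on genotype alone. Genes were called at a Benjamini-Hochberg adjusted p under 0.1 over all genes tested. The study's 2-fold minimum was an alternative, as were DESeq2 1.42.0, RLE scaling, other filters, an adjusted p of 0.05, the replicate number as a block, and the omission of each library. The omission of WT replicate 1 and *ISM1-/-* replicate 3 together was chosen after seeing the data. Scripts were tested on simulated data. Same-genotype libraries differed by more than sampling noise, which cannot by itself show that they came from separate mice. Each counted as a replicate because the paper calls them biological replicates. Depth was 37606133 to 42345042 counts per library.

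The members and all gene lists were chosen with earlier results of these data known. Genes are named if they are members, loop partners, the targeted gene, called modifier or output genes, overlap a named gene, are the 5 most and 5 least like *Arntl* over the 6 libraries among genes that averaged 1 CPM or more, or are markers on which a result turns. Overlaps with loop partners and output genes were added after seeing the data. The values of 1 loop partner are not reported here. Gene coordinates come from the deposited table.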

Additional observations from a re-analysis of the deposited data

How the results depend on the processing

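Of the members, 3 were called higher and 2 lower. Both calls of lower members held with RLE scaling, DESeq2, each filter, an adjusted p of 0.05, the block and each library left out (2 in each fit), and 3 were called higher with DESeq2 or RLE. With a 2-fold minimum, 0 members were called higher and 1 lower, and 0 associated genes either way, against 4 higher and 3 lower without it. At an adjusted p of 0.05, 2 members were called higher, without *Per3*, and 2 associated genes higher and 0 lower. With no filter on low counts, 4 members and 7 associated genes were called higher, and *Nr1d1* was among them (adjusted p = 0.00522 from edgeR). With each library left out, 1 to 4 members were called higher, 1 to 5 associated genes higher and 0 to 3 lower. The low of 1 member came without WT replicate 2, WT replicate 3 or *ISM1-/-* replicate 1, and the high of 4 without WT replicate 1. Without WT replicate 1 and *ISM1-/-* replicate 3 together, 4 members were called higher and 3 lower, *Per1* at -1.12 among the latter (adjusted p = 0.00166 from edgeR), and 5 associated genes were lower. That omission removes the lowest *Per1* value of WT and the highest of *ISM1-/-*, and it raised the calls over all genes to 2381 from 882. Those calls were 1632 with no filter and 150 to 1470 with each library left out, fewest without WT replicate 2 and most without *ISM1-/-* replicate 3, beside 671 (WT replicate 1), 341 (WT replicate 3), 247 (*ISM1-/-* replicate 1) and 261 (*ISM1-/-* replicate 2). The cause was not tested.

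The libraries share replicate numbers only: deviations of same-numbered libraries from their genotype means correlated at -0.04, 0.03 and 0.00. With the replicate number as a block, 4 members were called higher and 2 lower, 6 associated genes higher and 2 lower, and 1105 genes in all, with *Nr1d1* at 0.46 (adjusted p = 0.0374 from edgeR).

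With each library left out, the difference in log2 ratio lay between -1.36 and -1.08 for *Npas2* over *Clock*, -1.47 and -1.09 for *Arntl* over *Nr1d1*, 0.07 and 0.26 for *Cry1* over *Cry2*, and -1.20 and -0.42 for *Per1* over *Per3*. For *Nr1d1* over *Nr1d2* it lay between -0.10 and 0.26 and changed sign without WT replicate 3, *ISM1-/-* replicate 1 or *ISM1-/-* replicate 2. No fold change of a member or associated gene that was called changed sign in any of these settings. *Npas2* is the member with the fewest reads, 108 to 330 per library.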

Other observations

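Outside the members, the genes whose log2 CPM ran most like that of *Arntl* over the 6 libraries were *Ribc1*, a protein of the ciliary axoneme (Pearson r = 0.996), *Pam16* (0.995), *Map7d3* (0.995), *Cradd* (0.992) and *Ndufaf3* (0.991). Those that ran most against it were *Vil1*, the actin bundler villin (-0.994), *Manba* (-0.993), *Prss23os* (-0.991), *Gm37376* (-0.991) and *Ppp6r3* (-0.989). Of 15864 genes outside the members that averaged 1 CPM or more, 405 had an r above 0.9 and 260 an r below -0.9. An r of that size over 6 libraries that also differ in genotype and source was thus not particular to the genes named. Among the genes named, *Ribc1* had a log2 fold change of -0.57 (adjusted p = 0.0879 from edgeR) and *Cradd* of -0.32 (0.0841 from edgeR). *Prss23os* had one of 0.65 (edgeR's adjusted p = 0.0325) and *Gm37376* of 0.74 (edgeR's adjusted p = 0.0104), whereas *Vil1*, at 0.83, did not pass the test (edgeR's adjusted p = 0.107).

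*Zbtb16*, a glucocorticoid-responsive zinc finger gene on the list used beside *Per1*, had 23.2, 13.1 and 13.2 CPM in WT and 58.4, 66.7 and 285.7 CPM in the libraries labelled *ISM1-/-*. It was called higher, and the value of *ISM1-/-* replicate 3 was far above the others. *Mt1*, a metallothionein gene on the same list, was called lower, and the other 8 genes of the list were not called.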
